A study of Homo sapiens with 5 samples.

Results

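The data described here are the ZBTB7A binding peaks around ERG and TMPRSS2, the genes joined in the fusion that VCaP cells carry. Members were chosen by position alone on the hg19 build: every peak on chromosome 21 with its summit from 39650000 to 40130000 (the ERG window, 480 kb) or from 42740000 to 43000000 (the TMPRSS2 window, 260 kb). These windows held 105 of 196770 peaks over 3 lists, 69 at ERG and 36 at TMPRSS2. The stretch of 2.61 Mb between them, which held 327 peaks, served as the comparison. The windows were chosen with earlier results of these data known.

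ChIP-seq, in which DNA bound by a protein is pulled down with an antibody and sequenced, was used to map ZBTB7A in VCaP, an established line of prostate cancer cells with an active androgen receptor. Cells in medium with 5% hormone-depleted serum were given vehicle (2 CSS libraries) or the androgen DHT at 10 nM for 4 hours (2 DHT libraries). A further library came from cells in full serum (FBS, 1 library, with 10% serum in the routine medium). All libraries carry one treatment description in the labels, so the culture condition was used to read FBS as cells that had no DHT added. Each condition had 1 list, which left no measure of replicate spread, and no p-values are given. Read totals are not part of the lists and the sequencing depth is unknown. The FBS list was the longest, with 124868 peaks against 37782 in CSS and 34120 in DHT. Fold enrichment over background and −log10 q, the strength of evidence for a peak, are the authors' values. They rank peaks within a list, and where values of different lists stand side by side no change is read from them.

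ZBTB7A, also named Pokemon or LRF, is a zinc finger factor of the BTB family that is best known as a repressor of transcription and also acts as an activator at some genes. TMPRSS2 encodes a membrane serine protease of the prostate epithelium whose transcription is raised by androgens through the androgen receptor. ERG encodes an ETS family transcription factor that normal prostate epithelium expresses little. Both genes are transcribed in the same direction on the long arm of chromosome 21, with ERG nearer to the centromere. The fusion joins the androgen-responsive start of TMPRSS2 to the coding exons of ERG and so places ERG under androgen control. Reads from fused and intact copies map to the same hg19 positions, so the lists cannot tell them apart.

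In the RefSeq table of GRCh38, used for gene order only, 16 protein coding genes lie between ERG and TMPRSS2. They include ETS2, which encodes another ETS factor and follows ERG, and the interferon-induced genes MX2 and MX1, which come just before TMPRSS2. KCNJ15 precedes ERG and RIPK4 follows TMPRSS2. No hg19 annotation or sequence was used. Peaks are therefore placed by window and are not assigned to exons, introns or gene starts, and a peak in a window may belong to a neighbour of the gene that names it.

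The ERG window held few peaks in hormone-depleted serum and many in full serum. It had 4 peaks in CSS, 5 in DHT and 60 in FBS. Per Mb this was 8.33 in CSS (exact 95% Poisson interval 2.27 to 21.3), 10.4 in DHT (3.38 to 24.3) and 125 in FBS (95.4 to 161). All intervals here cover counting error only, and neighbouring peaks are not independent, so they are too narrow. The stretch between the genes had 18.4 CSS, 17.6 DHT and 89.3 FBS peaks per Mb. The density at ERG was thus 0.453 times that of the stretch in CSS (exact conditional interval 0.119 to 1.24), 0.591 times in DHT (0.183 to 1.48) and 1.40 times in FBS (1.04 to 1.87). Only the FBS interval excluded 1, and it reached 1 when peaks within 1 kb were merged (1.36, 0.983 to 1.85). Without peaks under a −log10 q of 5 the FBS ratio was 1.54 (0.933 to 2.44).

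**Figure D1:**
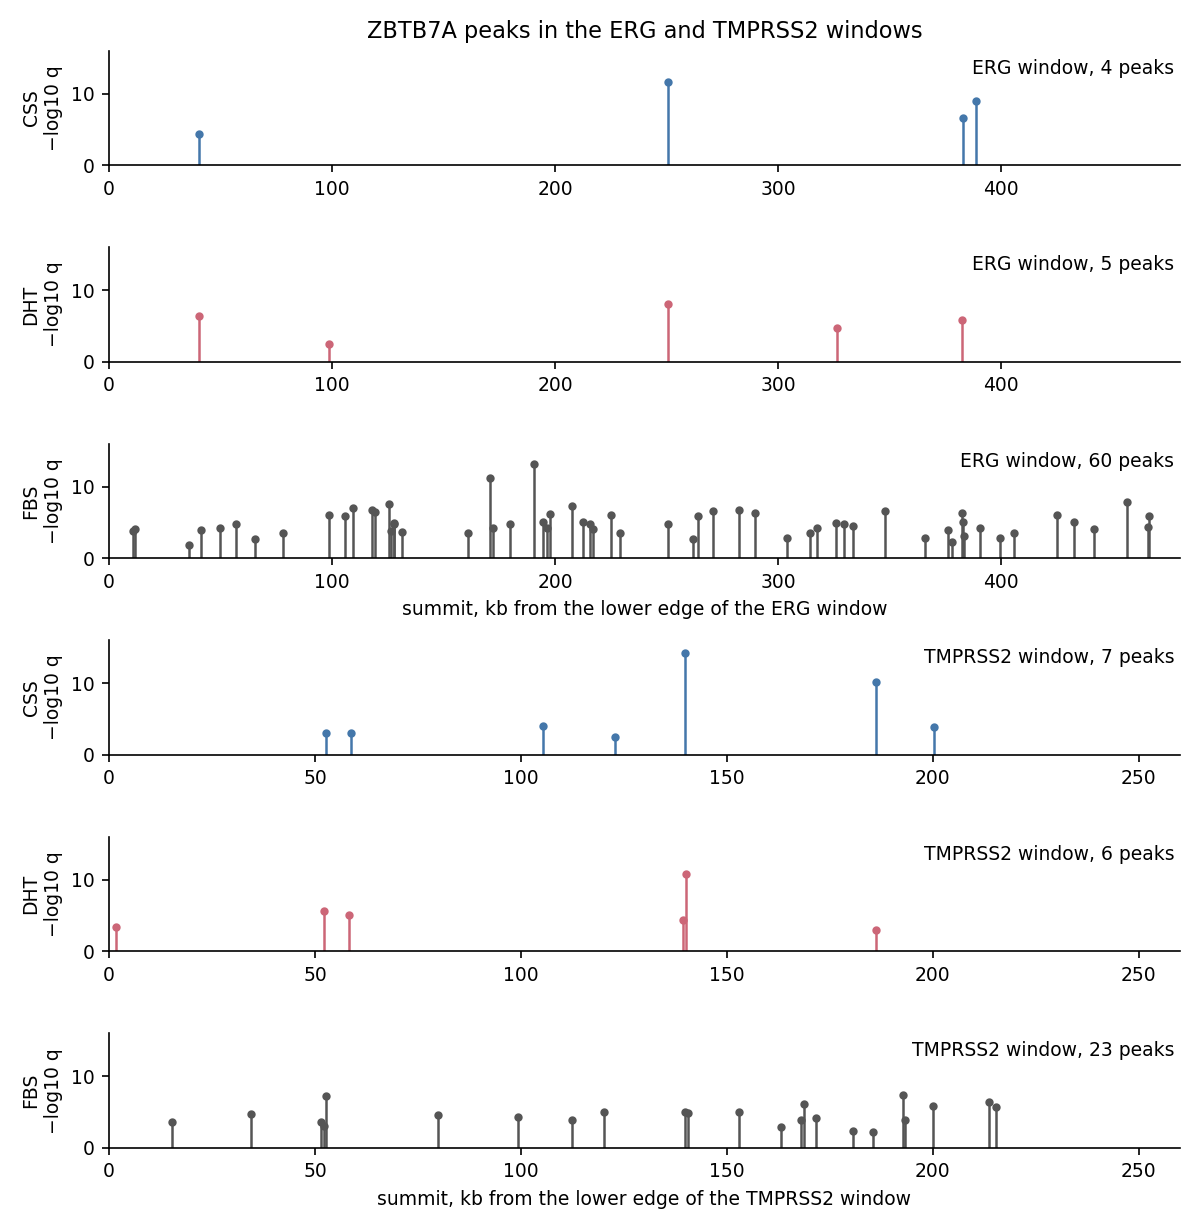
ZBTB7A peaks in the ERG window (upper 3 panels) and the TMPRSS2 window (lower 3 panels) in CSS, DHT and FBS. Each line is a peak, placed by the distance of its summit from the lower edge of the window in kb, with its −log10 q as height. The 60 FBS peaks at ERG are spread over the window, and the highest line at TMPRSS2 in CSS and DHT is at 140 kb.

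At TMPRSS2 no density differed from that of the stretch beyond counting error when all peaks were counted. The window had 7 peaks in CSS, 6 in DHT and 23 in FBS, or 26.9 per Mb (10.8 to 55.5), 23.1 (8.47 to 50.2) and 88.5 (56.1 to 133). Its density was 1.46 times that of the stretch between in CSS (0.559 to 3.25), 1.31 times in DHT (0.457 to 3.07) and 0.991 times in FBS (0.616 to 1.52). Each of these intervals included 1, and their width leaves room for a difference in either direction. The FBS density at ERG was 1.41 times that at TMPRSS2, with an interval that included 1 (0.861 to 2.39). Among FBS peaks with a fold enrichment of at least 5, TMPRSS2 had 0 and the stretch 69, which allows a density ratio of up to 0.551. This low value belongs to the cut by fold. When FBS peaks under a −log10 q of 5 were dropped instead, TMPRSS2 kept 8 and the ratio was 0.945 (0.395 to 1.95). At 10 or more the counts were 0 and 10, and no ratio was computed. Fold enrichment at TMPRSS2 was low for the q-value, as described below, so a cut by fold removes peaks that a cut by q keeps.

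Because the lists differ in length, the windows were also compared as shares of each list on chromosomes 1 to 22, X and Y. The ERG window took a 4.47 times larger share of the FBS list than of the CSS list (1.66 to 16.9) and a 3.24 times larger share than of the DHT list (1.31 to 10.3). The corresponding ratios for TMPRSS2 were 0.979 (0.407 to 2.70) and 1.03 (0.409 to 3.11). A ratio above 1 was not particular to ERG. Chromosome 21 as a whole had a ratio of 1.41 for FBS to CSS (1.29 to 1.55), and the stretch between the genes 1.45 (1.06 to 2.02). Set directly against the stretch, the odds of an FBS rather than a CSS peak were 3.08 times higher at ERG (exact interval 1.07 to 12.2) and 0.678 times as high at TMPRSS2 (0.262 to 1.98). Between ERG and TMPRSS2 the odds differed 4.48-fold (1.03 to 22.9). With DHT in place of CSS the intervals at ERG included 1, against the stretch (2.36, 0.887 to 7.96) and against TMPRSS2 (3.09, 0.709 to 14.2).

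The ERG contrast with CSS rests on 4 CSS peaks. The share ratio of FBS to CSS was 2.84 (0.863 to 14.7) once peaks under a −log10 q of 5 were left out and 2.64 (0.871 to 10.7) at a fold enrichment of at least 5. When the same number of leading peaks was taken from each list it was 5.00 (1.67 to 20.1), from 20 FBS and 4 CSS peaks. The odds ratio against the stretch was 2.74 (0.935 to 11.0) with peaks within 1 kb merged.

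**Figure D2:**
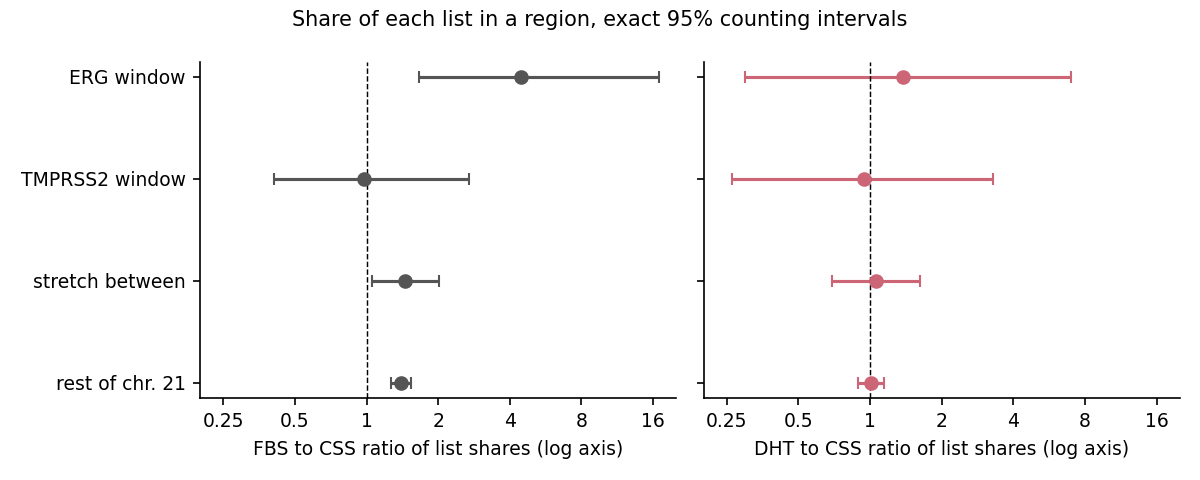
Ratio of list shares, FBS to CSS (left) and DHT to CSS (right), on log axes. Points are the ERG window, the TMPRSS2 window, the stretch between them and the rest of chromosome 21, with exact 95% counting intervals as bars. The FBS to CSS ratio at ERG is 4.47 and its bar lies above 1. So do the bars of the stretch (1.45) and of the rest of chromosome 21 (1.39). The bars at TMPRSS2 include 1 in both panels.

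The flank below the ERG window also had a higher FBS density than the stretch between (89.3 per Mb), and the flank above did not. In the 600 kb below the window there were 65 FBS peaks (108 per Mb), 7 CSS peaks and 7 DHT peaks. The 600 kb above it belong to the stretch. They held 52 FBS peaks (86.7 per Mb) and 14 peaks each in CSS and DHT. No interval was computed for either flank. The bin of 100 kb that includes the lower edge of the window held 17 FBS peaks, and bins wholly inside the window held 12 to 14. Bins as full were found in the stretch between, the fullest with 19 FBS, 0 CSS and 2 DHT peaks (from 41900000) and another with 16 FBS peaks (from 40600000). Flanks and bins were chosen after the values were seen.

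**Figure D3:**
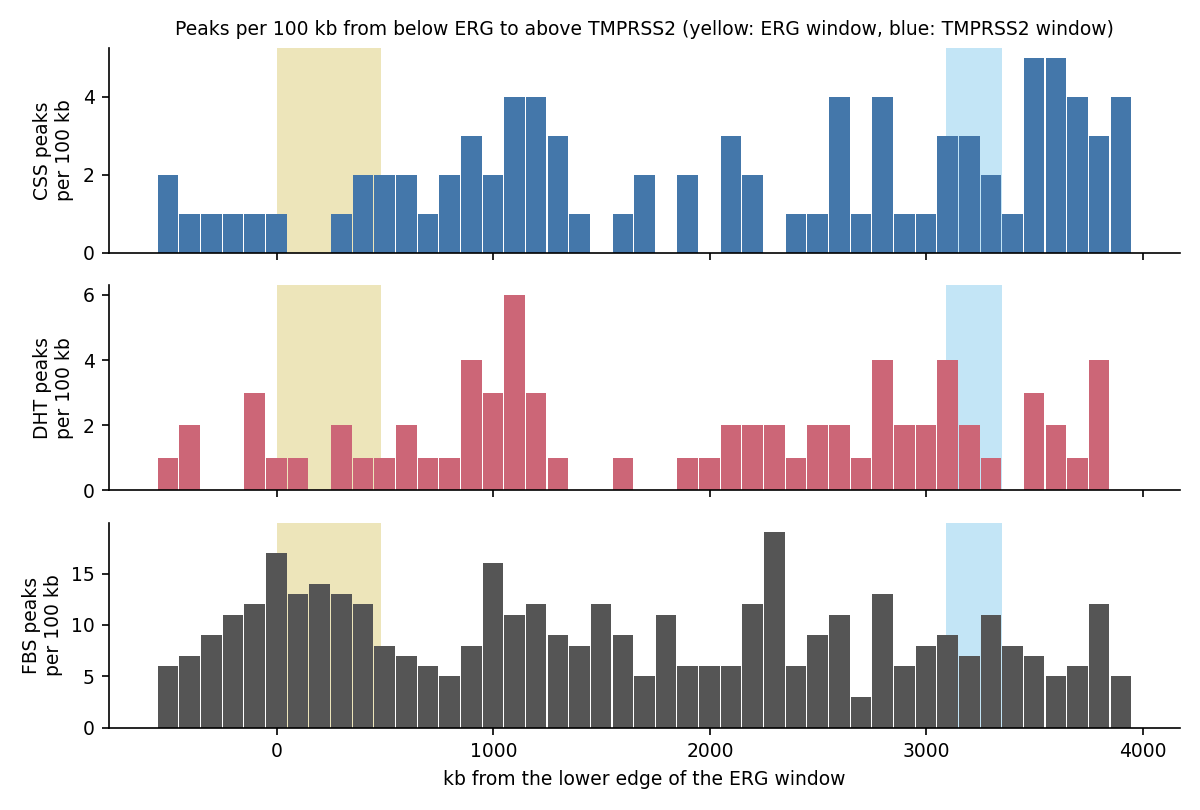
Number of CSS, DHT and FBS peaks per 100 kb (vertical axes) against the distance from the lower edge of the ERG window in kb, from below ERG to above TMPRSS2. Yellow marks the ERG window and blue the TMPRSS2 window. FBS bars reach 17 at the lower edge of the ERG window and 19 in the stretch between, while CSS and DHT bars at ERG reach at most 2.

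Within the ERG window the FBS peaks were spread throughout. The 8 parts of 60 kb held between 6 and 10 FBS peaks each, the most in the part from 39830000 to 39889999, where CSS and DHT had none. FBS summits were a median of 7.02 kb apart, and the longest distance without a summit was 29.8 kb. CSS summits were up to 210 kb apart. FBS peaks covered 3.95% of the window, against 0.341% for CSS and 0.290% for DHT. The peaks were narrow, with median widths of 280 bp in FBS, 288 bp in CSS and 252 bp in DHT.

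The sites called in hormone-depleted serum at ERG were few enough to describe in turn. The strongest CSS and DHT peak was at the same place, and it was called in full serum too. This site spans 39900395 to 39900652. Its −log10 q was 11.6 in CSS (fold enrichment 9.41), 8.10 in DHT (7.59) and 4.84 in FBS (4.86). It ranked at percentile 89.7 of the CSS list, 78.8 of the DHT list and 57.1 of the FBS list. A percentile is the share of a list with a lower −log10 q, with ties counted in equal parts. The summits of the lists lay within 88 bp of each other.

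The site from 40032041 to 40033210 was the other ERG site called in every list. CSS had a peak of 811 bp there (−log10 q 6.61, percentile 67.9) and DHT a peak of 470 bp (5.81, percentile 59.8). FBS had 2 peaks in it, the stronger with a −log10 q of 6.30 (percentile 80.8), and a further FBS peak from 40033268 to 40033529. Its CSS and DHT peaks were the widest of the ERG window in their lists.

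None of the remaining CSS and DHT sites at ERG was called in every list. The site from 39689952 to 39690271 was called in CSS (−log10 q 4.35, percentile 39.3) and DHT (6.38, percentile 65.4). No FBS peak overlapped it, although one lay 739 bp from the CSS peak. The CSS peak from 40038626 to 40038913 (8.93, percentile 81.5) had no partner and lay 1376 bp from the nearest FBS peak. DHT peaks from 39748649 to 39748846 (2.51) and from 39976017 to 39976215 (4.67) overlapped FBS peaks but no CSS peak. The first was among the lowest peaks of the DHT list (percentile 4.64), and its FBS partner had a −log10 q of 6.05 and rank 25589 in the FBS list.

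The strongest FBS peaks at ERG had no partner in hormone-depleted serum, as was true of most FBS peaks. Of the whole FBS list, 17.2% had a partner in CSS or DHT. The share among FBS peaks of like strength was not computed. The peak from 39840528 to 39840897 had a −log10 q of 13.1, a fold enrichment of 8.13 and rank 2744 in the FBS list. The peak from 39820521 to 39820845 followed at 11.2 (fold enrichment 7.18, rank 4472), and that from 40105931 to 40106433 at 7.89 (5.79, rank 11929). The first and second were the only FBS peaks at ERG with a −log10 q of at least 10, 2 of 60, against 4.92% of the whole FBS list. In CSS 1 of 4 ERG peaks passed this threshold (14.5% of the list), and in DHT 0 of 5 did (11.8%). The 60 FBS peaks had a median percentile of 56.9 and ranged from 0.295 to 97.8. The median peak of the whole FBS list is at 45.4, since many of its peaks share 1 q-value.

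**Figure D4:**
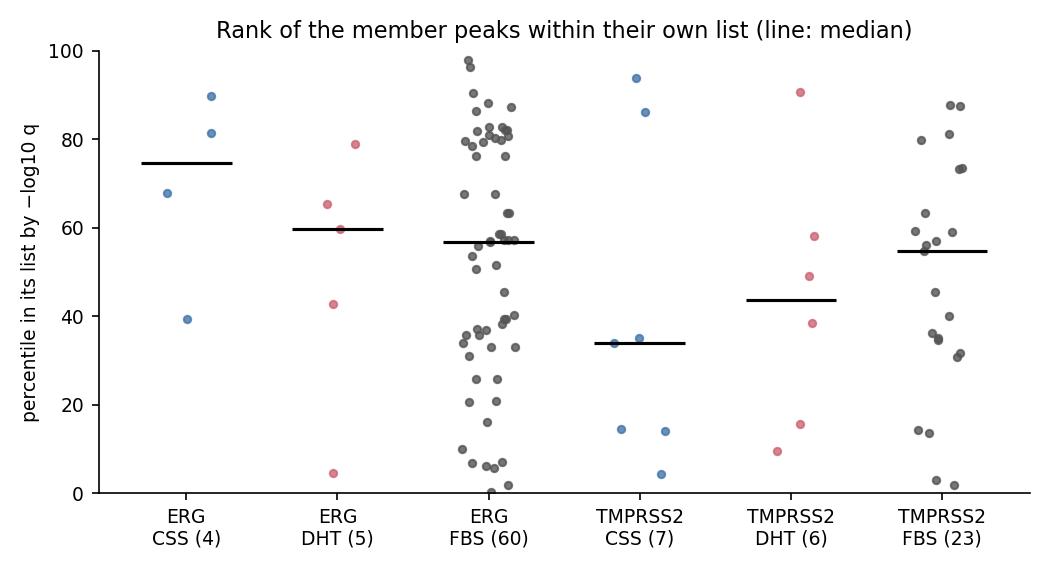
Percentile of each member peak in its own list by −log10 q (vertical axis), for CSS, DHT and FBS at ERG and at TMPRSS2, with the number of peaks in brackets. Each point is a peak and the line is the median. FBS peaks at ERG range over nearly the whole list, and the TMPRSS2 window has peaks above percentile 90 in CSS and DHT only.

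At TMPRSS2 a single site led both lists of hormone-depleted serum. It spans 42879678 to 42880298. Its −log10 q was 14.2 in CSS (fold enrichment 8.47, peak of 617 bp), 10.7 in DHT (7.83, 610 bp) and 5.04 in FBS (3.08, 229 bp). It stood at percentile 93.8 in CSS, rank 2338, and 90.6 in DHT, rank 3201. In FBS it stood at percentile 63.4. It was the site of the window called in every list and the widest one in CSS and DHT. DHT had a further peak from 42879307 to 42879512 (4.35), 165 bp from the CSS peak, and FBS one from 42880489 to 42880718 (4.82).

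The next strongest CSS peak at TMPRSS2 overlapped a DHT peak that was weak in its own list. At 42926092 to 42926345 the −log10 q was 10.24 in CSS (fold enrichment 8.68, percentile 86.2) and 2.98 in DHT (4.42, percentile 9.64). The summits were 1 bp apart. No FBS peak overlapped the site, and the nearest was 473 bp away. These values come from separate lists, and no test of a difference was possible.

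In the lower part of the TMPRSS2 window, CSS and DHT peaks lay next to each other without overlap, and FBS peaks overlapped one or the other. The DHT peak from 42792074 to 42792486 (5.62, percentile 58.1) overlapped an FBS peak with a summit 9 bp away. The CSS peak from 42792532 to 42792722 (3.08, percentile 14.0) began 45 bp beyond that DHT peak and shared its site with the FBS peak from 42792526 to 42792801 (7.32, percentile 87.4), with summits 2 bp apart. About 6 kb higher, the DHT peak from 42797989 to 42798271 (5.12) and the CSS peak from 42798690 to 42798880 (3.11) were 418 bp apart, with no FBS peak.

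The remaining CSS and DHT peaks at TMPRSS2 were weak. CSS peaks from 42845141 to 42845422 (4.02) and from 42862609 to 42862896 (2.42) had no partner. The CSS peak from 42940186 to 42940376 (3.92) overlapped an FBS peak (5.79). The DHT peak from 42741610 to 42741807 (3.34) had no partner and lay 1.67 kb inside the lower edge of the window.

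The leading FBS peaks at TMPRSS2 lay from 42932653 to 42932887 (7.43, rank 15261), at the site from 42792526 just described (rank 15698) and from 42953167 to 42954023 (6.38, rank 23462), the last being the widest at 857 bp. None of the 23 reached a fold enrichment of 5, against 32.1% of the whole FBS list. None reached a −log10 q of 10 either, where the share of the list, 4.92%, would give about 1 peak. For comparison, the highest peak of the stretch between had a −log10 q of 23.7 in FBS, from 40685518 to 40686401, and 14.0 in CSS and 12.7 in DHT at a shared site around 40720591 to 40721280.

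The share of peaks with a partner in another list did not differ from that over whole lists beyond counting error at either gene. With 4 to 7 CSS or DHT peaks a window, the intervals were too wide to show anything but a very large difference. A partner is a peak of another list that overlaps by at least 1 bp. At ERG 3 of 4 CSS peaks had a DHT partner (19.4 to 99.4%), against 56.8% of all CSS peaks. There 3 of 5 DHT peaks had a CSS partner (14.7 to 94.7%), against 63.9% of all DHT peaks. At TMPRSS2 the counts were 2 of 7 (3.67 to 71.0%) and 2 of 6 (4.33 to 77.7%).

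An FBS partner was present for 2 of 4 CSS and 4 of 5 DHT peaks at ERG, and for 3 of 7 and 2 of 6 at TMPRSS2. The shares over all peaks were 44.1% of CSS and 48.2% of DHT. Of the FBS peaks, 5 of 60 at ERG (8.33%, 2.76 to 18.4%) and 4 of 23 at TMPRSS2 (17.4%, 4.95 to 38.8%) had a partner in CSS or DHT. The share was 17.2% over the whole FBS list, inside both intervals, and 12.0% (8.14 to 16.9%) in the stretch between.

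After peaks of the 3 lists were merged, the ERG window had 61 separate regions and the TMPRSS2 window 30. At ERG 55 regions (90.2%, 79.8 to 96.3%) held an FBS peak alone, 2 were called in every list, 1 in CSS and DHT, 2 in DHT and FBS and 1 in CSS alone. At TMPRSS2 19 regions (63.3%, 43.9 to 80.1%) held an FBS peak alone, 1 was called in every list and 6 in CSS alone or DHT alone. In the stretch between, 205 of 270 regions (75.9%, 70.4 to 80.9%) held FBS peaks alone. Over the whole lists, where FBS is the longest, the share was 68.4%, which was below the interval at ERG and inside that at TMPRSS2. The intervals of ERG and of the stretch overlapped slightly, and that of TMPRSS2 included the stretch's value. This share depends on how many FBS peaks a window has for each CSS or DHT peak. At ERG it is therefore not independent of the contrast in peak numbers given above.

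The FBS peaks at TMPRSS2 had low fold enrichment for their q-values. Their median percentile was 54.7 by −log10 q and 10.9 by fold enrichment. In 22 of 23 the percentile by fold was below the percentile by q, against 34.0% of the whole FBS list. The counts were 36 of 60 at ERG and 87 of 233 in the stretch between. Among FBS peaks with a −log10 q from 4 to 6, the median fold enrichment was 3.58 at TMPRSS2 (10 peaks, 2.99 to 4.71), 4.40 at ERG (25 peaks) and 4.80 both in the stretch (86 peaks) and in the whole list. Fold enrichment was lowest from 42870000 to 42934999, where 11 FBS peaks had a median of 3.08 and a median −log10 q of 4.22. The relation of fold to q held in 10 of these 11 and in all 12 peaks of the other parts. This comparison was made after the values were seen.

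That pattern went on above the window. In the 600 kb above TMPRSS2, 40 of 43 FBS peaks had a percentile by fold below that by q, and the median percentile by fold was 13.0. In the 600 kb below it the count was 23 of 51. The 600 kb below and above ERG had 17 of 65 and 24 of 52. In CSS the relation held for 1 of 7 TMPRSS2 peaks, against 18.8% of that list, and in DHT for 2 of 6, against 33.0%.

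**Figure D5:**
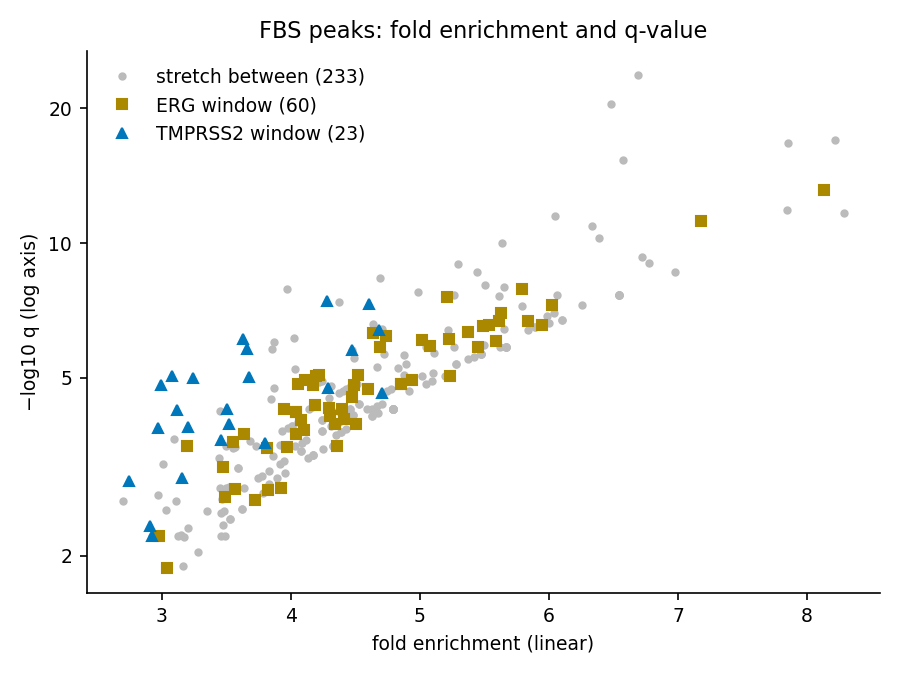
Fold enrichment (horizontal axis, linear) and −log10 q (vertical axis, log) of each FBS peak in the ERG window, the TMPRSS2 window and the stretch between them. Most of the 23 TMPRSS2 points lie to the left of the other points at the same −log10 q, at a fold enrichment of 2.75 to 4.71.

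DHT and CSS had similar numbers of peaks at either gene, and the counts were too low for a close comparison. The share of the DHT list divided by that of the CSS list was 1.38 at ERG (0.297 to 6.96), 0.947 at TMPRSS2 (0.263 to 3.29) and 1.06 in the stretch between (0.691 to 1.62). With 4 to 7 peaks a window, differences within these intervals were not detectable.

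Moving the window edges slightly would change few members. At ERG the nearest FBS summits lay 10.9 kb inside and 3.95 kb outside the lower edge and 13.7 kb inside and 7.31 kb outside the upper edge, with −log10 q of 3.82, 4.16, 5.87 and 2.52. At TMPRSS2 they lay 15.3 and 7.66 kb from the lower edge and 44.5 and 5.90 kb from the upper edge, with −log10 q of 3.58, 5.23, 5.78 and 3.41. In CSS and DHT the nearest summits were 40.1 kb or more from the edges of ERG. At TMPRSS2 they were 22.8 kb or more away, except for the DHT peak at 1.67 kb.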

How the data were processed

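The data were 3 peak lists in narrowPeak format. Per the labels, 1 list stands for both CSS libraries and 1 for both DHT libraries. The sources used here do not give the control, the thresholds or how libraries were combined. MACS2 2.0.10.20131216, BWA 0.7.2-r351, SAMtools 0.1.18 and the build hg19 (GRCh37) are named, per the submitters' processing notes. Deposited by the authors for each peak were a fold enrichment (ratio over background), a −log10 q, and a score equal to the whole part of 10 times −log10 q. Positions count from 1, and a summit is the list's start plus its offset.

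Counts per window have exact Poisson intervals, density and share ratios exact conditional binomial intervals, shares Clopper-Pearson intervals and odds ratios exact conditional intervals, all at 95%. The length of the rest of chromosome 21 leaves out gaps between summits of 1 Mb or more. The peaks named are the 3 highest by −log10 q per list and window, the 3 highest without a partner, the widest, those called in every list and those next to the edges; all other CSS and DHT members were added so that each is accounted for. Members, windows and alternatives were chosen with earlier results of these data known. Odds ratios, flanks, bins and fold enrichment at like q-value were added after the values were seen. Planned annotation and motif counts at summits were not run without an hg19 genome. Scripts ran in Python 3.11.15 with scipy 1.17.1, pandas 2.3.3, numpy 2.4.6 and, for figures, matplotlib 3.10.9. On the deposited lists, the code that finds overlaps gave the counts of bedtools 2.31.1 for 6 of 6 ordered pairs of lists.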

Additional observations from a re-analysis of the deposited data

How the results depend on the processing

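Alternatives gave 168 values: 138 lay inside the reported value's interval, or for counts within 1.5 times of it, and 30 lay outside. For median percentiles of few peaks the interval was the full range, and for fold enrichment at like q-value the quartiles. Wide intervals make a value easy to count as inside. The FBS to CSS share ratio at ERG did so at a −log10 q of at least 5, although its own interval included 1 (0.863 to 14.7). Of 74 ratios under alternatives, 10 fell on the other side of 1; in all 10 the intervals of the reported and the alternative ratio included 1. With peaks at a −log10 q of at least 5 these were, at TMPRSS2, the CSS density ratio (0.837), the FBS to CSS share ratio (1.42) and odds ratio (1.13) and the DHT to CSS share ratio (1.51). At TMPRSS2 the FBS density ratio was 1.17 with trimmed windows and 1.15 against the rest of chromosome 21. The DHT to CSS share ratio at ERG was 0.977 at a fold enrichment of at least 5, and in the stretch it was 0.880 to 0.901 under the 3 stricter thresholds. A further 8 were not computed because a count was 0. No paired analysis was possible because CSS and DHT libraries are represented by 1 list per condition; for that reason no library could be left out. Stricter thresholds keep fewer peaks by construction. At a −log10 q of at least 5, the peaks kept at ERG, TMPRSS2 and the stretch between were 3, 2 and 24 in CSS, 3, 3 and 21 in DHT, and 24, 8 and 85 in FBS. At 10 or more they were 1, 2 and 6, then 0, 1 and 4, then 2, 0 and 10. At a fold enrichment of at least 5, TMPRSS2 kept 4 peaks in CSS, 3 in DHT and 0 in FBS, ERG kept 18 in FBS, and the stretch kept 30 in DHT and 69 in FBS. The density ratio of TMPRSS2 to the stretch in CSS was 3.35 at a −log10 q of at least 10 (2 peaks), with an interval that included 1 (0.330 to 18.7). As a share of chromosome 21, the FBS to CSS ratio of the stretch was 1.03, while that of ERG was 3.17 (1.18 to 12.0). Among peaks at a −log10 q of 5 or more, 100% of CSS peaks at TMPRSS2 (2 of 2) and 100% of DHT peaks at ERG (3 of 3) had a partner in the other list of depleted serum, against 78.9% and 80.1% of all such CSS and DHT peaks. With peaks within 500 bp as partners, 83.3% of DHT peaks at TMPRSS2 had a CSS partner, against 68.8% of all DHT peaks. The median percentile of FBS peaks at TMPRSS2 was 10.9 by fold enrichment. Relative to the whole FBS list, median fold enrichment at like q-value was 0.747 at TMPRSS2 and 0.917 at ERG for −log10 q from 4 to 6, and 0.760 and 1.01 from 5 to 8; the cause was not tested. The unknown depth limits every comparison between lists.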
